A study of Mus musculus with 12 samples.

Results

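Liver mRNA was profiled by RNA-Seq around the day in 2 series of 6 samples, and the series were compared with each other here at matched times. All 12 RNA-Seq samples of the deposited table entered the comparison, as 6 pairs at zeitgeber time (ZT, hours after lights on) 2, 6, 10, 14, 18 and 22. Every sample came from the liver of wild-type male C57BL/6 mice of 3 to 6 months, kept in 12 hr of light and 12 hr of darkness for at least 2 weeks, and no sample had a treatment or an altered gene. Series 1 and series 2 therefore share genotype, age range and lighting, and differ by their replicate number in the labels. Each time had 1 sample in each series, and the sources used here do not say how many mice made up a sample. The signal of a gene is its coverage in reads per base pair (rpbp). Of 20069 rows in the table, 10198 had a value above 2 rpbp in at least 1 sample and are called expressed. A difference is given throughout as series 2 minus series 1 on the scale of log2(rpbp + 0.5), so that a positive value means a higher level in series 2.

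The liver keeps a circadian clock in its own cells, in which the activators Clock and Arntl drive the genes of their repressors, the Per and Cry families. It also follows signals from outside: feeding drives the enzymes that make fatty acids and cholesterol, fasting drives the targets of the fatty acid receptor PPARA, and inflammation drives acute-phase proteins secreted to the blood. Growth hormone is released in pulses, acts through the transcription factor STAT5 and maintains the sex-biased part of the liver transcriptome. The pairs were matched by time of day only. Feeding, inflammation and growth hormone are not recorded in the sources used here, and their part in the differences was not tested.

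The pairs were alike in most genes. Across expressed genes, Pearson's r of the log2 signal within a pair was between 0.978 at ZT22 and 0.989 at ZT6, as a description over genes of the same libraries. The median absolute difference was 0.12 at ZT6 and 0.16 at ZT10 and ZT22, and between 71.2% (ZT10) and 81.7% (ZT6) of genes lay within 1.2-fold. The median difference of a pair lay between -0.07 (ZT14) and 0.04 (ZT6), so no pair was shifted as a whole by more than this. In 10 of 12 samples the best correlated sample was the partner at the same time. The exceptions were ZT10 of series 2, which was closest to ZT6 of the same series (r = 0.983), and ZT22 of series 1, which was closest to ZT18 of the same series (r = 0.980). The hepatocyte markers Alb, Apoa1, Apob, Ttr, Serpina1a, Tat, Cps1 and Fgb were expressed in all samples, and none of the 8 passed 2-fold at any time.

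Both ZT2 samples stood apart from the other 10. In 41 genes the ZT2 values of both series lay outside all other samples by more than 2-fold, 13 above and 28 below, against at most 6 genes for any other time.

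No gene passed the test of a steady difference between the series. A limma fit with time as a block called 0 of 10198 genes (0%) at an adjusted p below 0.05, with 416 genes at an unadjusted p below 0.05 and a lowest adjusted p of 0.994. A robust limma fit also called 0. The sign of the difference was the same at all 6 times in 287 genes (2.81%), of which 125 were higher and 162 lower in series 2. In 13 genes the mean difference over the 6 pairs exceeded 2-fold, and in 54 it exceeded 1.5-fold. In 2 genes (0.0196% of those expressed) the 6 values of 1 series lay above the 6 of the other, Dph4 and mFLJ00177. Dph4, a gene of diphthamide synthesis, was between 2.84 and 3.42 rpbp in series 1 and between 1.91 and 2.5 rpbp in series 2. The unnamed transcript mFLJ00177 was between 7.18 and 7.95 rpbp in series 1 and between 8.04 and 9.32 rpbp in series 2. These 2 were picked after their values were seen.

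**Figure D1:**
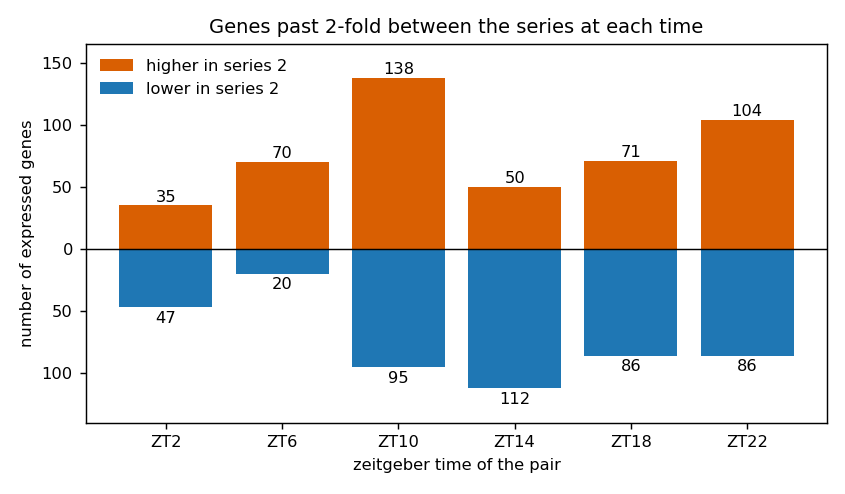
Number of expressed genes that differed by more than 2-fold at each zeitgeber time, with bars up for genes higher in series 2 and bars down for genes lower in series 2. The ZT10 pair had the most (138 up and 95 down), and the ZT2 pair the fewest (35 up and 47 down).

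Single times were where the series disagreed. In 580 genes (5.69%) the difference passed 2-fold at 1 or more times, and 9618 genes (94.3%) never did. With 1 sample of each series at a time, these single differences have no replicate check, and no p was computed for them. The number past 2-fold ranged from 82 genes at ZT2 to 233 at ZT10, with 90 at ZT6, 162 at ZT14, 157 at ZT18 and 190 at ZT22, as in the bar plot of counts by time. At ZT2, 0.343% of expressed genes were higher and 0.461% lower in series 2. At ZT6 the shares were 0.686% higher and 0.196% lower. At ZT10 they were 1.35% higher and 0.932% lower. At ZT14 they were 0.490% higher and 1.10% lower, or 50 and 112 genes, which quantile scaling turned to 66 and 81. At ZT18 they were 0.696% higher and 0.843% lower, and at ZT22 they were 1.02% higher and 0.843% lower.

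A single time past 2-fold accounted for 363 of the 580 genes, 133 genes passed at 2 times, 56 at 3, 24 at 4, 3 at 5 and 1 at 6. Of the 217 genes past 2-fold at 2 or more times, 149 were higher in series 2 at some times and lower at others, 33 were higher each time and 35 lower each time. Between any 2 times, the correlation across genes of the differences lay between -0.16 and 0.21. The share past 2-fold at any time was 16.6% of 1245 genes with a mean below 2 rpbp, 3.78% of 4978 genes from 2 to 8, 3.77% of 2708 genes from 8 to 32 and 6.55% of 1267 genes from 32 upward. Genes with a mean below 2 rpbp entered only through a sample above 2 rpbp, which by itself selects for spread between samples.

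Acute-phase genes were higher in series 2 at ZT22. These genes encode plasma proteins that hepatocytes secrete during inflammation, such as serum amyloid A and haptoglobin. Of 28 expressed members of the list, 14 were past 2-fold higher in series 2 at ZT22 and none lower, against 1.02% of all expressed genes, and 26 of 28 had a higher value in series 2. Their median difference was 1.02, beside -0.02 over all expressed genes. At ZT2, no member passed 2-fold.

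Saa1 and Saa2, the genes of the inducible serum amyloid A proteins, lie side by side on chromosome 7 (mm9, GENCODE annotation: Saa1 at chr7:53995871-53998350, Saa2 at chr7:54007203-54009684). In series 1, Saa1 was at 3578 rpbp at ZT2, then 14.5, 22.9, 58.2, 27.8 and 28.8 rpbp from ZT6 to ZT22. In series 2 it was at 3229 rpbp at ZT2, then 37.4, 32.3, 49.95 and 58.1 rpbp, and 1312 rpbp at ZT22. Saa1 was thus high in both ZT2 samples and in the ZT22 sample of series 2, and at most 58.2 rpbp in the other 9.

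Saa2 had the same order of samples at its top. In series 1 it was at 2131 rpbp at ZT2, then 6.65, 7.4, 14.6, 11.7 and 9.04 rpbp. In series 2 it was at 2068 rpbp at ZT2, then 16.2, 16.7, 9.33 and 14.7 rpbp, and 815 rpbp at ZT22. The ZT22 differences were 5.48 for Saa1 and 6.42 for Saa2, and the ZT2 differences were -0.15 and -0.04. Saa1 and Saa2 are near-identical copies, so sequences could have been split between them by the unique mapping. Their promoters are shown because the pair moved together. Over the last 100 of the 300 bases shown, 99 were identical. The capitals used for a motif further on are absent here, because TTCNNNGAA does not occur in either window. Both are from RefSeq (GRCm38.p6), 5′ to 3′ on the strand of the gene, from 250 bases before to 50 bases after the start, with Saa1 at chr7:46742931-46743230 on the minus strand and Saa2 at chr7:46751583-46751882 on the plus strand.
Saa1: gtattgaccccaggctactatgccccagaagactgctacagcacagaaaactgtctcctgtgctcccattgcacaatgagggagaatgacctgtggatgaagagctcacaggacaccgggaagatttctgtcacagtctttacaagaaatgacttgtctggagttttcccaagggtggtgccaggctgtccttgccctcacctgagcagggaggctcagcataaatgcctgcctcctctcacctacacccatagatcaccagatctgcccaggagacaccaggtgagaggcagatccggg
Saa2: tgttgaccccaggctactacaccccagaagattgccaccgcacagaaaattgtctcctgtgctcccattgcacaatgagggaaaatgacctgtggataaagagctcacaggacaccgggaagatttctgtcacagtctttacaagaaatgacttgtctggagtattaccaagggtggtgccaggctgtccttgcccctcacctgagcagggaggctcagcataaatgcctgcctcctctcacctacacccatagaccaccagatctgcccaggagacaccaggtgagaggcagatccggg

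Lcn2 and Orm2 had their highest value outside ZT2 in the same sample. Lcn2, the iron-siderophore binding protein lipocalin 2, was at 2.25 rpbp in series 1 and 61.1 rpbp in series 2 at ZT22, beside 135 and 108 rpbp at ZT2 and at most 9.41 rpbp elsewhere. Orm2, an orosomucoid, was at 8.66 and 69.6 rpbp at ZT22, beside 131 and 97.1 rpbp at ZT2. For the more abundant members the gap was smaller: the haemoglobin binder Hp was at 1183 and 3132 rpbp, the haem binder Hpx at 1313 and 2961 rpbp, and Apcs, which encodes serum amyloid P, at 123 and 417 rpbp. The iron hormone Hamp1 was at 177 and 400 rpbp, below its values in several other samples, the highest being 872 rpbp at ZT18 of series 1. Socs3, the feedback inhibitor of interleukin-6 signalling, was at 0.49 and 3.58 rpbp, and highest at ZT14 of series 2 with 4.47 rpbp. The fibrinogen genes Fga, Fgb and Fgg differed by 0.77, 0.87 and 0.74 and did not pass 2-fold.

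Further genes outside the list were higher in the same sample. Picked after their values were seen, Fgl1, a hepatocyte secreted fibrinogen-like protein, was at 72.0 and 459 rpbp at ZT22, and Lrg1, a secreted glycoprotein, at 142 and 490 rpbp. Of the metal response list, Mt1, a zinc-binding metallothionein, was at 2.65 and 21.0 rpbp, and its neighbour Mt2 at 0.86 and 15.1 rpbp. Both metallothioneins went the other way at ZT2, where Mt1 was at 89.4 rpbp in series 1 and 27.5 rpbp in series 2, and Mt2 at 35.5 and 9.48 rpbp. Blood cell markers were mostly higher in the ZT22 sample of series 2, past 2-fold in 3 of 5 expressed markers, beside 1.02% of all expressed genes. The globin Hbb-b1 was at 15.8 and 59.9 rpbp, the globin Hba-a2 at 8.44 and 35.9 rpbp and the neutrophil gene S100a9 at 0.50 and 3.73 rpbp. The erythroid gene Alas2 went the other way, at 63.9 and 46.3 rpbp. The summed signal of the 7 blood cell markers in the table was 90.5 rpbp in series 1 and 148 rpbp in series 2 at ZT22, within a range of 90.2 to 203 rpbp over series 1 and 110 to 296 rpbp over series 2, and the platelet genes Ppbp and Cxcl4 never exceeded 1.04 rpbp. Kupffer cell markers were higher in the same sample as well, in 13 of 13 expressed markers with a median of 0.25, and their summed signal was 205 rpbp in series 1 and 268 rpbp in series 2. The part of these cells in the acute-phase difference was not tested. In bulk RNA, fewer cells of a type and less RNA per cell cannot be told apart.

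**Figure D2:**
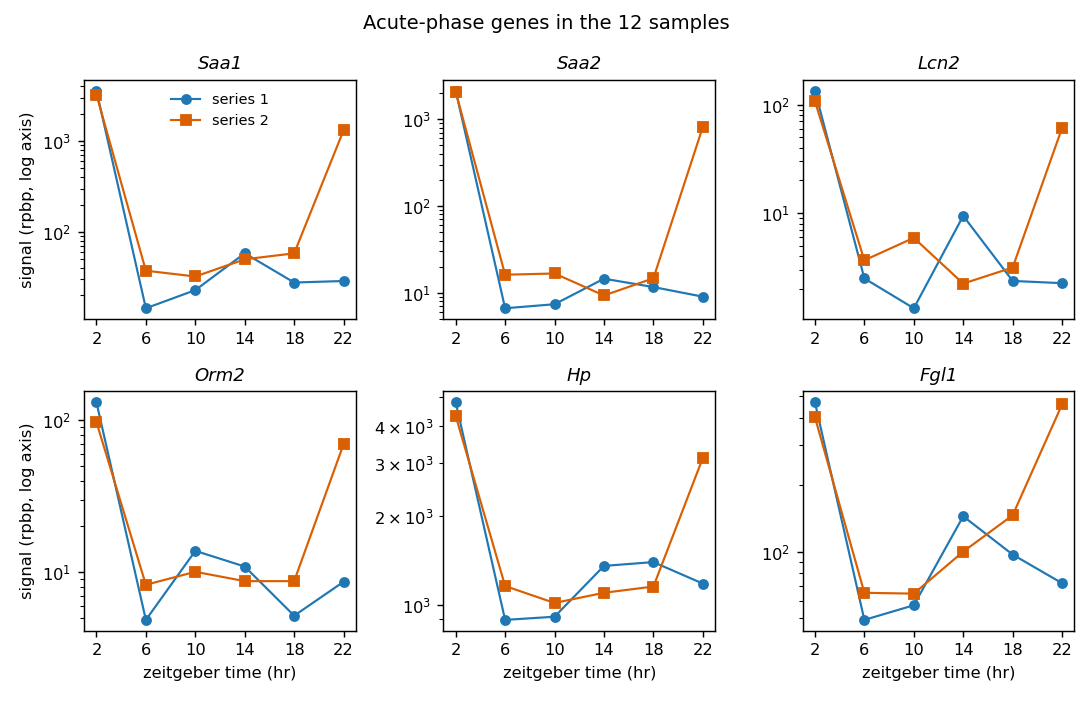
Signal in rpbp (log axis) of 5 acute-phase genes and Fgl1 against zeitgeber time, with circles for series 1 and squares for series 2, 1 sample a point. In Saa1, Saa2, Lcn2 and Orm2 both ZT2 samples are high, and at ZT22 the sample of series 2 is high while that of series 1 is low (Saa1 at 1312 and 28.8 rpbp).

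The ZT22 sample of series 2 was nearer to ZT2 than its partner was. Among the 190 genes past 2-fold at ZT22, the value of series 2 was nearer to the ZT2 mean in 140 and that of series 1 in 50. Across all expressed genes the correlation with the ZT2 mean was 0.977 for the ZT22 sample of series 2 and 0.959 for that of series 1. The count of nearer values over all expressed genes is not given here. A shift toward a neighbouring time was not particular to ZT22. At ZT10, series 2 was nearer to the ZT6 mean in 167 of 233 genes past 2-fold. Across all expressed genes, the correlation of the ZT10 samples with the ZT6 mean was 0.985 in series 2 and 0.978 in series 1. With the ZT14 mean it was 0.969 in series 2 and 0.981 in series 1. Selenbp2, a male-biased selenium-binding protein, was an example: it was at 5.47 rpbp in series 1 and 295 rpbp in series 2 at ZT22, beside 677 and 383 rpbp at ZT2 and 3.31 and 3.90 rpbp at ZT10. Near-identical copies of Selenbp2 exist, and its sequences may be divided among them.

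Fatty acid synthesis genes disagreed at ZT10, where series 2 was higher. Of 18 expressed members, 10 were past 2-fold higher and none lower (1.35% and 0.932% of all genes), with a median difference of 1.07 beside 0.02 over all genes. A member counted as expressed with 1 sample above 2 rpbp, which could be the sample in which it was high. At ZT22 the order was opposite, with 4 members past 2-fold lower in series 2, none higher and a median of -0.71. The shares of all genes at ZT22 were 0.843% lower and 1.02% higher.

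Fasn, fatty acid synthase (chr11:120667254-120685492, mm9), was at 10.8, 103, 34.6, 58.6, 42.1 and 54.6 rpbp from ZT2 to ZT22 in series 1. In series 2 it was at 11.4, 70.3, 115.5, 49.5, 25.5 and 38.6 rpbp. It therefore peaked at ZT6 in series 1 and at ZT10 in series 2, and both ZT2 samples were its lowest. Gpam, which starts triglyceride synthesis, was at 32.7 rpbp in series 1 and 104 rpbp in series 2 at ZT10. The desaturase Scd1 was at 2237 and 5866 rpbp, the elongase Elovl5 at 86.8 and 305 rpbp, and malic enzyme (Mod1, now Me1) at 43.6 and 163 rpbp. The transcription factors that drive these enzymes were within 2-fold. Srebf1 was nearly equal at 80.8 and 77.4 rpbp, and Mlxipl was at 32.7 and 27.7 rpbp.

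PPARA and fasting target genes were higher in the same ZT10 sample. Of 28 expressed PPARA and fasting targets, 9 were past 2-fold higher and none lower (1.35% and 0.932% of all genes), and the median was 0.51. At ZT14, 5 were past 2-fold lower and 1 higher (median -0.11), or 2 and 1 under median-of-ratios scaling (median -0.03). At ZT18 and ZT22 they were mostly lower in series 2, with 2 lower and 1 higher at ZT18 (median -0.36) and 3 lower and none higher at ZT22 (median -0.36). The shares of all genes past 2-fold lower were 1.10% at ZT14 and 0.843% at both ZT18 and ZT22. At ZT10, Cidec, a lipid droplet fusion protein, was at 0.91 rpbp in series 1 and 10.5 rpbp in series 2, beside at most 3.8 rpbp elsewhere. Cidec was at most 1.85 rpbp in series 1, so it counted as expressed only through series 2, where it was high. The droplet coat gene Adfp, now Plin2, was at 105 and 251 rpbp, and the fatty acid hydroxylase Cyp4a14 at 62.2 and 265 rpbp. Cpt1a, which brings fatty acids into mitochondria for oxidation, differed by 0.19. Picked after their values were seen, the nuclear receptor Pparg was at 1.56 and 10.04 rpbp, the fatty acid transporter Cd36 at 16.0 and 61.5 rpbp, and Mogat1, an enzyme of triglyceride synthesis, at 0.42 and 4.66 rpbp. The fat marker Cfd was listed at 0 in series 1 and at 8.18 rpbp in series 2, and the fatty acid carrier Fabp4, the other expressed muscle and fat marker, was at 4.00 and 9.12 rpbp. The fat markers Adipoq and Plin never exceeded 0.10 rpbp in any sample, and the summed signal of the 11 muscle and fat markers was between 4.34 and 14.9 rpbp in series 1 and between 4.18 and 18.4 rpbp in series 2. The globins were higher in this sample too, Hbb-b1 at 28.5 and 150 rpbp and Hba-a2 at 16.8 and 79.3 rpbp, and the part of these markers in the lipid difference was not tested.

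Male-biased genes were lower in series 2 at ZT6 and ZT10 and higher at ZT18. Of 14 expressed members, 7 were past 2-fold lower at ZT10 and 1, Elovl3, higher, with a median of -0.88. The shares of all expressed genes at ZT10 were 0.932% lower and 1.35% higher. At ZT6, 2 members were past 2-fold lower, beside 0.196% of all genes, none higher, and the median was -0.44. At ZT18, 5 were past 2-fold higher, beside 0.696% of all genes, none lower, and the median was 0.53. The globins passed 2-fold in the opposite direction at ZT10 and ZT18. Hbb-b1 differed by 2.37 and -1.01 at these times and Hba-a2 by 2.20 and -1.14, and their part in this difference was not tested.

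Mup1, 1 of 4 expressed major urinary protein genes (chr4:60510884-60514832, mm9), was at 4607, 450, 1368, 797, 686 and 1381 rpbp in series 1. In series 2 it was at 4465, 134, 137, 1467, 1919 and 2527 rpbp. The series crossed between ZT10 and ZT14, with series 1 higher before and series 2 higher after. Of the 4 major urinary protein genes, 3 were lower at ZT6, 4 at ZT10, and 3 were higher at ZT14 and ZT22, but at ZT18 2 were higher and 2 lower, and Mup3 was lower in series 2 at 5 of 6 times. Serpina1e, an alpha-1 antitrypsin gene, also crossed there, although series 2 was higher at ZT2 as well: it was at 1330 rpbp in series 1 and 260 rpbp in series 2 at ZT10, and at 1762 and 3998 rpbp at ZT18. The steroid dehydrogenase Hsd3b5 was at 53.6 and 8.81 rpbp at ZT10 and at 64.6 and 114 rpbp at ZT18. The oxysterol hydroxylase Cyp7b1 was at 82.3 and 22.3 rpbp at ZT10 and at 41.3 and 86.3 rpbp at ZT18. Mup and Serpina1 genes belong to families of near-identical copies, and unique mapping could divide their sequences unevenly. Egfr, the receptor of epidermal growth factor, is outside the list and was named for its large difference at ZT10. It was past 2-fold lower at that time only, with 50.4 rpbp in series 1 and 10.2 rpbp in series 2.

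Female-biased genes were lower in series 2 at ZT14, ZT18 and ZT22. Of 7 expressed members, 4 were past 2-fold lower at ZT14, 5 at ZT18 and 2 at ZT22, and none was past 2-fold higher at these times. The shares of all expressed genes were 1.10%, 0.843% and 0.843% lower. At ZT10, 3 members were past 2-fold higher, beside 1.35% of all genes. Acot3 and Cyp4a14 are also in the PPARA list, so the lists partly count the same genes. Both were past 2-fold lower at ZT14 (-1.03 and -1.68) and higher at ZT10 (1.16 and 2.08), and Acot3 was lower at ZT22 (-2.23). Under quantile scaling the ZT14 count was 2. The ZT18 median was -2.25. Cyp2b9, a female-biased steroid hydroxylase, was at 0.12, 103, 98.1, 69.4, 104 and 41.7 rpbp in series 1, and at 0.21, 132, 157, 49.8, 25.2 and 16.8 rpbp in series 2. It was near 0 in both ZT2 samples. Cyp2b13 was at 7.63 and 0.84 rpbp at ZT18, and Cyp4a14, which is also a PPARA target, at 144 and 21.9 rpbp. Cyp2c39, a cytochrome outside the list picked after its values were seen, was at 43.6 and 0.84 rpbp. Sequences of these cytochrome genes may be shared with close copies. The globins were also past 2-fold lower at ZT18, Hbb-b1 at 92.3 and 45.7 rpbp and Hba-a2 at 55.6 and 24.9 rpbp, and their part in this difference was not tested.

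**Figure D3:**
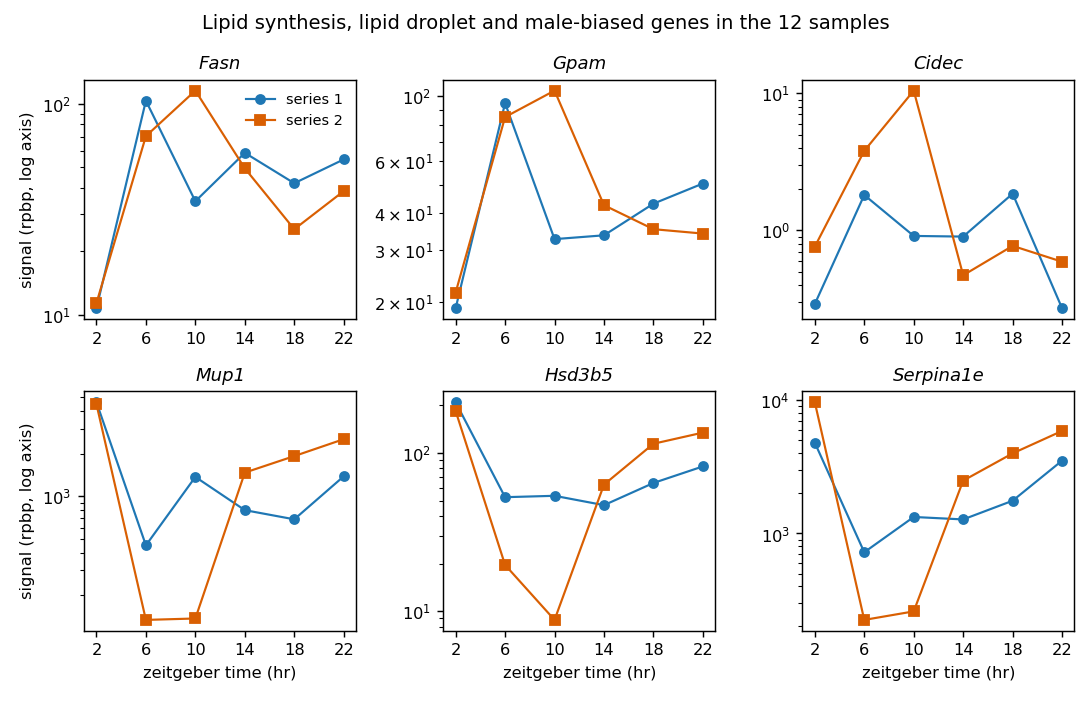
Signal in rpbp (log axis) of Fasn, Gpam and Cidec, and of the male-biased genes Mup1, Hsd3b5 and Serpina1e, against zeitgeber time, with circles for series 1 and squares for series 2. The ZT10 sample of series 2 is high for the first 3 and low for the last 3 (Fasn at 115.5 against 34.6 rpbp, Mup1 at 137 against 1368 rpbp).

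Of the growth hormone feedback genes, Cish and Bcl6 disagreed at 3 times and in opposite directions. This list of 9 genes was put together after values of Cish and Bcl6 were seen. Cish encodes a STAT5-induced inhibitor of cytokine receptors (chr9:107198357-107205115, mm9), and Bcl6 a repressor that STAT5 turns down (chr16:23965138-23988938, mm9). Cish was at 8.13, 0.15, 8.96, 2.96, 6.10 and 0.78 rpbp from ZT2 to ZT22 in series 1. In series 2 it was at 11.7, 7.90, 8.8, 4.54, 1.25 and 4.54 rpbp. Bcl6 was at 2.43, 8.28, 1.8, 4.37, 1.49 and 15.9 rpbp in series 1 and at 3.58, 1.81, 1.59, 6.94, 22.6 and 1.95 rpbp in series 2. At ZT6, ZT18 and ZT22 both genes passed 2-fold, and at each of these the sample with more Cish had less Bcl6. At the other times both differences were within 2-fold and of the same sign, with 0.50 and 0.48 at ZT2, -0.02 and -0.14 at ZT10, and 0.54 and 0.61 at ZT14.

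The differences of Cish were 3.69 at ZT6, -1.92 at ZT18 and 1.98 at ZT22, and those of Bcl6 were -1.93, 3.54 and -2.74. In all, 10 expressed genes passed 2-fold at each of these 3 times, Saa1 among them. Socs2, another STAT5-induced inhibitor, was past 2-fold higher at ZT6 (0.54 and 1.71 rpbp) and at ZT14 (0.51 and 1.65 rpbp). It was at 2.72 and 4.63 rpbp at ZT18 and at 1.01 and 1.97 rpbp at ZT22, so it did not follow Cish at ZT18. The liver transcription factor Onecut1 was at 1.06 and 3.72 rpbp at ZT6. The growth hormone receptor Ghr was between 101 and 137 rpbp in all 12 samples. Stat5a, Stat5b, Igf1 and Igfals did not pass 2-fold at any time.

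The promoters of Cish and Bcl6 are shown because these genes opposed each other at 3 of 6 times. Capitals mark the palindromic STAT motif TTCNNNGAA, which reads the same on both strands. The motif occurred in 8.30% of 32851 RefSeq promoters of this length (GRCm38.p6), and 2 or more times in 0.457%. The Cish window, chr9:107296409-107296708 on the plus strand, held 2 matches. RefSeq gives Bcl6 2 starts, with windows at chr16:23988803-23989102 (1 match) and chr16:23981234-23981533 (3 matches) on the minus strand. A match is a description of the letters and not of binding.
Cish: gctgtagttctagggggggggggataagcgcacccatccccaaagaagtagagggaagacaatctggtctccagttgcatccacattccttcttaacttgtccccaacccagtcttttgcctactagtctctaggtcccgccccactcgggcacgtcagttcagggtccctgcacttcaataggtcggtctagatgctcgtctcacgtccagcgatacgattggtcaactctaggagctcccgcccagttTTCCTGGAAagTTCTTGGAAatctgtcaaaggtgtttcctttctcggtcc
Bcl6, first window: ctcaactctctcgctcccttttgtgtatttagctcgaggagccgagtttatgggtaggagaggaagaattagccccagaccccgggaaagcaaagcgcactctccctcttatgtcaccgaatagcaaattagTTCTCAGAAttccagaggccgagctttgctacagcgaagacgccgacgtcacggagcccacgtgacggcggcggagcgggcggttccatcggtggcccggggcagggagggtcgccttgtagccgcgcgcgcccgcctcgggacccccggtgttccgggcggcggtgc
Bcl6, second window: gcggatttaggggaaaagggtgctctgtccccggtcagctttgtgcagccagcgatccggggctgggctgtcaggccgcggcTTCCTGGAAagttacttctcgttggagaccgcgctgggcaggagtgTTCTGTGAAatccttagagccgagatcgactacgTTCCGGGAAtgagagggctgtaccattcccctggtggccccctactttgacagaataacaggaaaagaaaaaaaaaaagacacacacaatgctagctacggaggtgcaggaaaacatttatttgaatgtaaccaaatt

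Antigen presentation genes, Kupffer cell markers and interferon-response genes were mostly higher in series 2 at ZT6 and lower at ZT14, and differed from each other in direction at ZT10. The antigen presentation genes H2-Aa, H2-Ab1, H2-Eb1 and Cd74 were the 4 expressed of 7 markers of dendritic cells. At ZT6, 3 of the 4 were past 2-fold higher with a median of 1.13, and at ZT14 all 4 were past 2-fold lower with a median of -1.35. The shares of all expressed genes were 0.686% higher at ZT6 and 1.10% lower at ZT14. These antigen presentation genes were also 4 of 4 higher at ZT10 (median 0.58) and at ZT18 (median 0.90, 1 past 2-fold). H2-Ab1, a class II beta chain, was at 4.66, 7.10, 6.43, 18.4, 5.61 and 6.70 rpbp in series 1 and at 5.44, 16.4, 10.6, 6.77, 12.2 and 8.42 rpbp in series 2. Its highest value was at ZT14 in series 1 and at ZT6 in series 2. The summed signal of the 7 markers was between 33.1 and 96.2 rpbp in series 1 and between 31.2 and 91.1 rpbp in series 2, and the dendritic cell markers Itgax, Ccr7 and Flt3 never exceeded 0.27 rpbp.

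Macrophage markers differed in the same direction at ZT6 and ZT14 by smaller amounts. Of 13 expressed Kupffer cell markers, all 13 were higher in series 2 at ZT6 (median 0.51) and all 13 lower at ZT14 (median -0.48), and none passed 2-fold at any time. At ZT18, 12 of 13 were higher (median 0.33), and at ZT10, 10 of 13 were lower (median -0.11). Mpeg1, a pore-forming protein of macrophages, was at 15.2 and 25.3 rpbp at ZT6 and at 21.3 and 10.6 rpbp at ZT14. Interferon-response genes had a median of 0.46 at ZT6, with 23 of 28 higher, and of -0.33 at ZT14, with 28 of 28 lower (26 once the pair was scaled to its median). At ZT10 they had a median of -0.34, with 25 of 28 lower, while the antigen presentation genes were 4 of 4 higher. The immunity GTPase Igtp was at 10.7 and 24.3 rpbp at ZT6 and at 19.1 and 6.87 rpbp at ZT14. The NKG2D ligand gene Raet1d, picked after its values were seen, was at 18.1 and 57.9 rpbp at ZT6 and at 27.9 and 6.32 rpbp at ZT14. None of the 9 B and plasma cell and 11 T and NK cell markers in the table was expressed, and none of the 12 endothelial markers passed 2-fold. The globins were lower in series 2 at ZT14 too, Hbb-b1 at 74.3 and 32.1 rpbp. The part of these markers in the immune differences was not tested.

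Hamp1 and Lcn2 were lower in series 2 at ZT14 as well. Hamp1 was at 450 rpbp in series 1 and 103 rpbp in series 2, and Lcn2 at 9.41 and 2.23 rpbp. Acute-phase genes had 5 of 28 members past 2-fold lower and none higher at ZT14, against 1.10% of all genes, and 3 under median-of-ratios scaling.

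**Figure D4:**
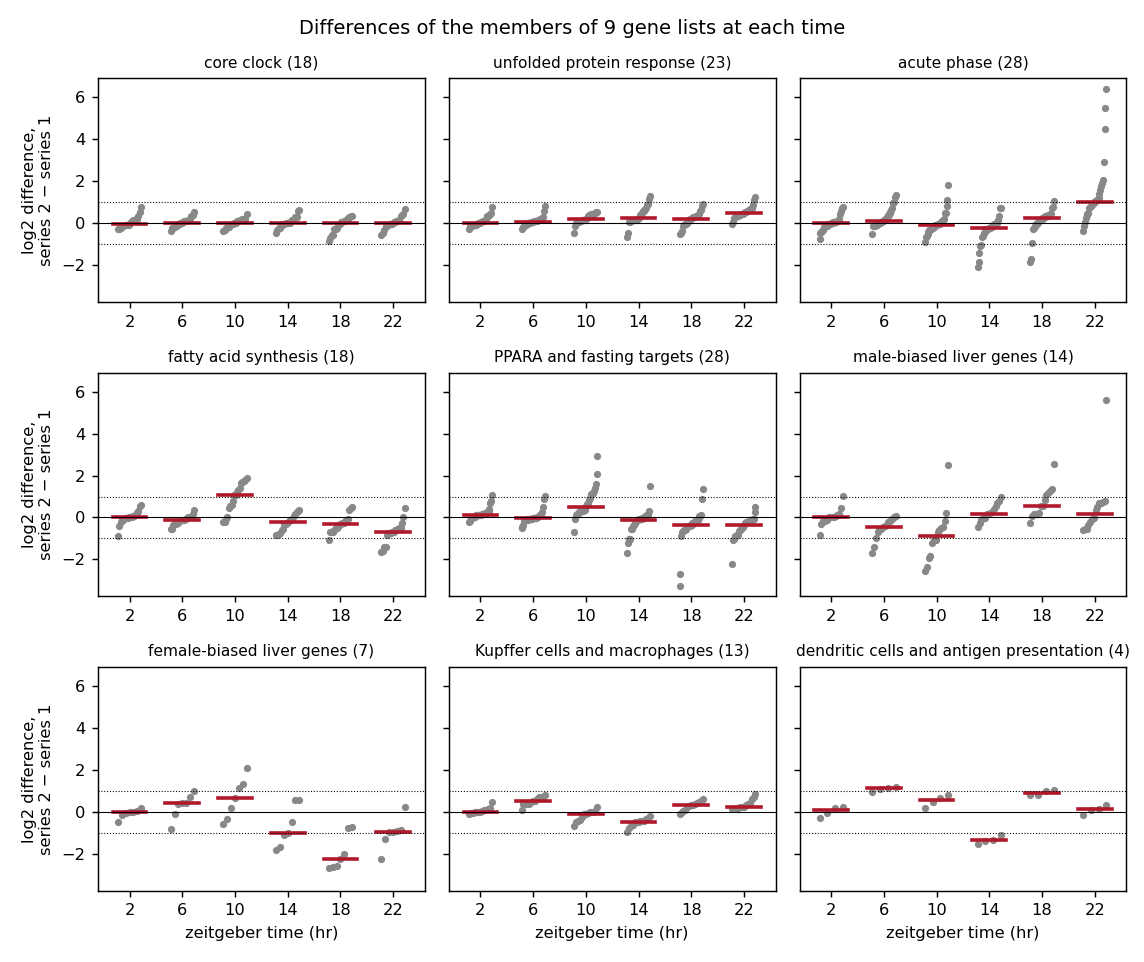
Difference of each expressed member (grey points, sorted within a time; series 2 minus series 1 on the log2 scale) and the median (red bar) for 9 gene lists at each zeitgeber time, with the number of expressed members in brackets and dotted lines at 2-fold. The core clock stays within the dotted lines, acute-phase genes lie high at ZT22 (median 1.02), and fatty acid synthesis genes lie high at ZT10 (median 1.07) and low at ZT22 (median -0.71).

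Immediate early genes were higher in series 2 at ZT6, with 5 of 20 expressed members past 2-fold higher, none past 2-fold lower and a median of 0.48. The shares of all genes at ZT6 were 0.686% higher and 0.196% lower. At other times 17 of 20 members were higher at both ZT10 and ZT18, and 12 of 20 at ZT14. There 3 were past 2-fold higher, beside 0.490% of all genes, and none past 2-fold lower (median 0.35). Kupffer cell markers and antigen presentation genes were also higher in series 2 at ZT6, and their part in this difference was not tested. Of the immediate early genes at ZT6, the phosphatase gene Dusp1 was at 6.29 and 19.3 rpbp. Jun, a subunit of AP-1, was at 1.83 and 5.94 rpbp, and the stress gene Gadd45g at 0.77 and 4.77 rpbp. The zinc finger gene Egr1 was lower in series 2 at ZT2 (10.6 and 0.90 rpbp) and ZT6 (2.33 and 1.38 rpbp), and past 2-fold higher at ZT14 (0.92 and 4.08 rpbp) and ZT18 (1.87 and 6.03 rpbp). Alas1, the first enzyme of haem synthesis, was at 31.4 and 117 rpbp at ZT6 and at 48.4 and 10.3 rpbp at ZT18.

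Genes of the unfolded protein response had mean differences above 0 without a member that passed the test after adjustment, and 10 of 23 had an unadjusted p below 0.05 in limma, beside 416 of 10198 over all genes. They encode chaperones and folding enzymes of the endoplasmic reticulum. All 23 expressed members had a mean difference above 0, beside 44.5% of all expressed genes, and their median mean difference was 0.19. Under quantile scaling the count was 22 of 23, and without the ZT22 pair it was 20 of 23. Median differences by time were 0.02, 0.07, 0.21, 0.24, 0.20 and 0.49 from ZT2 to ZT22.

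Creld2, a secreted stress chaperone (chr15:88650076-88657111, mm9), had the lowest p of all genes in the limma fit. It was at 13.2, 4.34, 6.93, 17.2, 8.08 and 11.0 rpbp in series 1 and at 22.6, 4.64, 10.1, 42.5, 12.7 and 23.8 rpbp in series 2, higher at all 6 times. Its mean difference was 0.72 (SE 0.14), with an unadjusted p of 0.000692 and an adjusted p of 0.994 in limma. The chaperone gene Hspa5 was higher at all 6 times by 0.36 (SE 0.10) on average, with the same adjusted p. Hyou1, a further chaperone, was higher at 5 of 6 times by 0.55 (SE 0.12). Xbp1 and Atf4, transcription factors of the pathway, differed by 0.04 and 0.05 on average.

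Igfbp1, the insulin-repressed binding protein of insulin-like growth factors, passed 2-fold at 4 times. It was at 2.83, 3.66, 5.35, 3.16, 6.10 and 3.14 rpbp in series 1 and at 4.34, 3.47, 17.4, 8.23, 13.1 and 13.4 rpbp in series 2, higher at 5 of 6 times. The mean difference was 1.05 (SE 0.23), with an adjusted p of 0.994 in limma. Cholesterol synthesis and uptake genes had a mean difference above 0 in 23 of 24 members, with a median of 0.11. Without the ZT18 pair the count was 15 of 24 and the median 0.04, and without the ZT14 pair they were 18 of 24 and 0.07. At ZT18, Sqle, a rate-controlling epoxidase of the pathway, was at 4.46 and 13.7 rpbp. It was past 2-fold the other way at ZT10, at 11.25 and 4.70 rpbp.

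Core clock genes were within 2-fold at all times on the log2(rpbp + 0.5) scale. Of 18 expressed members, none passed 2-fold at any time, and neither did 94.3% of all expressed genes, so that the count of 0 lies near the background. The median difference lay between -0.03 and 0.02 at the 6 times. Under the other scalings the ZT14 median was 0.08, and the ZT6 median turned from 0.02 to between -0.02 and -0.01. Low values were held within 2-fold by the offset: Per1 was at 1.16 and 0.52 rpbp at ZT18, Gm129 at 0.49 and 0.16 rpbp at ZT18 and at 0.11 and 0.47 rpbp at ZT22, and Npas2 had ratios above 2-fold at values of at most 0.09 rpbp. The largest single difference was -0.84, for Bhlhb2 (now Bhlhe40), a repressor, at ZT18, where series 1 was at 48.2 rpbp and series 2 at 26.7 rpbp. The activator Arntl was at 5.90, 0.28, 0.71, 1.94, 5.87 and 6.45 rpbp in series 1 and at 5.55, 0.52, 1.11, 3.22, 7.35 and 6.92 rpbp in series 2. The repressor Nr1d1 was at 11.5, 35.4, 5.16, 0.95, 1.02 and 2.63 rpbp and at 10.6, 27.1, 5.84, 1.65, 0.96 and 3.63 rpbp. Arntl was lowest and Nr1d1 highest at ZT6 in both series. The output regulator Dbp was at 48.2 and 60.3 rpbp at ZT6, and Per2 at 8.99 and 10.01 rpbp at ZT14, their highest values in both series. The ribosomal protein (40 expressed) and respiratory chain (51 expressed) lists also had no member past 2-fold at any time.

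No gene passed the test of a 24 hr rhythm that differs between the series. A limma F test of the 24 hr cosine and sine terms by series called 0 genes (0%), with 175 at an unadjusted p below 0.05 and a lowest adjusted p of 1.00. A robust fit also called 0. The lowest p belonged to Rnd3, a small GTPase gene, with 0.000548. It was followed by AK195979, AK215842, AK197973, AK009064, Mopt, Aktip and Arvcf, whose p lay between 0.00130 and 0.00412.

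**Figure D5:**
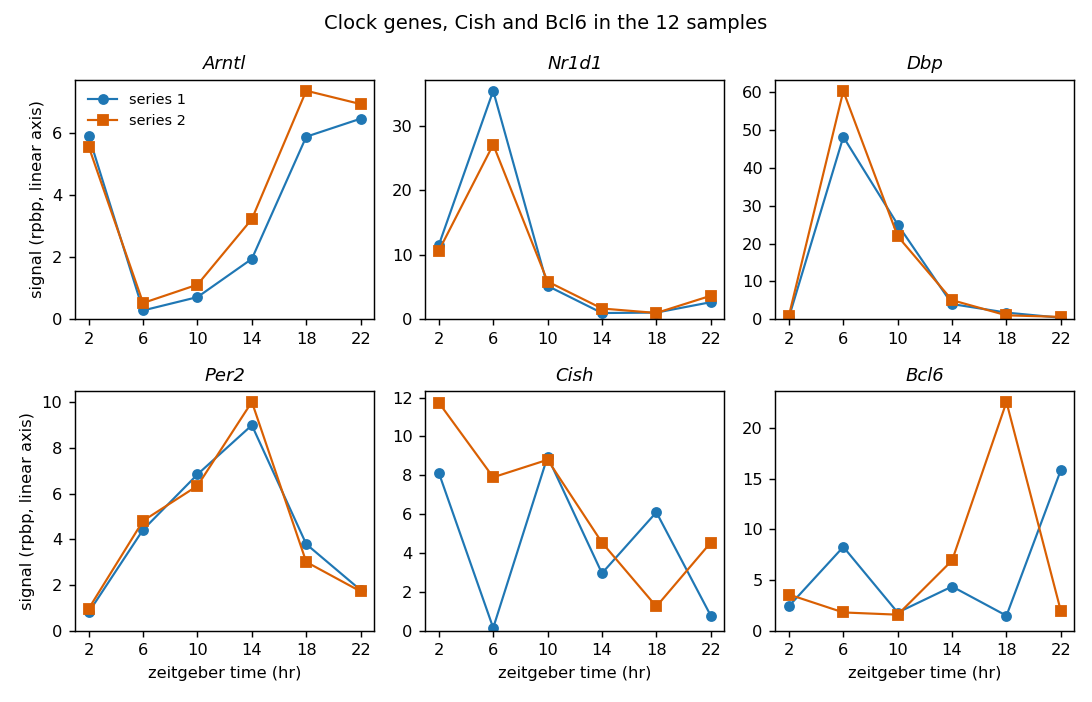
Signal in rpbp (linear axis) of the clock genes Arntl, Nr1d1, Dbp and Per2 and of Cish and Bcl6 against zeitgeber time, with circles for series 1 and squares for series 2. The clock genes lie within 2-fold of each other at each time, whereas Cish and Bcl6 part at ZT6, ZT18 and ZT22 (Bcl6 at 1.49 and 22.6 rpbp at ZT18).

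Some rows switched between near 0 and a high value. In 8 expressed rows a value of 0.1 rpbp or less stood beside 4 rpbp or more at the same time. Spcs3, a signal peptidase subunit gene (chr8:55605787-55615351, mm9), was at 29.4, 21.0, 0.03, 26.1, 18.98 and 25.0 rpbp in series 1 and at 0.03, 0.03, 26.2, 0.04, 24.7 and 33.0 rpbp in series 2. It had 4 samples at 0.03 or 0.04 rpbp and none between these and 18.98 rpbp. Pcdhb11, a protocadherin gene, was at 23.5 and 22.9 rpbp at ZT2, at 0.03 and 37.0 rpbp at ZT18 and at 0.03 and 25.2 rpbp at ZT22, and at most 0.19 rpbp in between. The ubiquitin-conjugating enzyme variant Ube2v1 was at 0.11 rpbp in series 1 at ZT2, against 13.5 to 16.4 rpbp in the other 11 samples. Ppp1r2, a phosphatase inhibitor, was at 0.29 rpbp in series 2 at ZT14, against 6.81 to 8.8 rpbp in the others. Without the 8 rows, which do not include Ube2v1 and Ppp1r2, the genes past 2-fold numbered 572.

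Among rows that reached 4 rpbp, BC042789 passed 2-fold at 5 times and in both directions. Of the rows past it at 4 times in both directions, Spcs3, AK220016, AK187054 and Accn5 had the largest mean absolute difference. The other rows past 2-fold at 5 or 6 times, DQ701953, NR_002897 and AK199756, never exceeded 2.72 rpbp. AK220016, an unnamed transcript, was at 51.3, 60.7, 117, 168, 186 and 85.4 rpbp in series 1 and at 5.38, 92.0, 5.78, 427, 3.85 and 160 rpbp in series 2. AK187054 was at 12.4, 16.1, 27.6, 50.1, 51.5 and 32.6 rpbp in series 1 and at 2.96, 27.5, 3.55, 141, 1.23 and 51.9 rpbp in series 2. Both were low in the ZT2, ZT10 and ZT18 samples of series 2.

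Which sample of a pair lay outside the rest also varied by time. At ZT10, only series 2 lay outside the range of the other 10 samples in 90 of 233 genes, and only series 1 in 46. At ZT6 the order was opposite, with 29 genes for series 1 and 21 for series 2 of 90. At ZT22 neither sample lay outside in 103 of 190 genes. Among genes past 2-fold at 1 time only, those with the largest differences at ZT22 were Orm2 and Prtn3 (a neutrophil protease, 0.23 and 4.58 rpbp) upward and Lcn13 (17.4 and 3.59 rpbp) and AK005275 (11.2 and 2.44 rpbp) downward. At ZT18 they were Nnmt (nicotinamide methyltransferase, 17.6 and 62.4 rpbp) and AK197973 (11.8 and 37.2 rpbp) upward and Gja10 (5.21 and 0.14 rpbp) and Cyp2b10 (14.2 and 5.23 rpbp) downward.

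At the remaining times the same rule named mostly low genes. At ZT2 these were Ube2v1 and AK185785 (1.83 and 5.20 rpbp) upward and Ly96 (a co-receptor of TLR4, 4.40 and 1.52 rpbp) and DQ693239 (23.6 and 9.77 rpbp) downward. At ZT6 they were EG634650, now Gbp11 (1.57 and 6.75 rpbp), and D0H4S114 (2.53 and 8.47 rpbp) upward and Serpina12 (6.51 and 2.01 rpbp) downward. At ZT10 they were Cidec and Olig1 (0.14 and 5.82 rpbp) upward and Ear11 (4.26 and 0.38 rpbp) and Egfr downward. At ZT14 they were DQ699981 (1.66 and 17.3 rpbp) and aprt (1.82 and 5.50 rpbp) upward and Tff2 (4.70 rpbp and listed at 0) and Ppp1r2 downward.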

How the data were processed

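The authors extracted RNA from mouse liver, sequenced it, aligned it to mm9 with TopHat (labels also name CASAVA 1.8) and deposited signal values: coverage in reads per base pair over the joined exons of each gene, from uniquely mapped sequences, scaled to 10000000 such sequences per sample. Strand was not used, so overlapping and antisense genes cannot be told apart. The paper gives the number of uniquely mapped sequences of each library, and series 2 had more at most times. The number of reads behind the value of a single gene is unknown, so no counting error is given. The part of this depth in the differences of low genes was not tested. The deposited score, phase and p-value columns of the authors' rhythm test were not used. The columns named ZT20 were taken as ZT22, which the sample titles give.

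The 6 columns of series 1 were paired by time with the 6 of series 2. Expressed genes had a value above 2 rpbp in any sample. Differences were taken on log2(signal + 0.5), a scale that understates the change of low genes. Steady differences were tested with limma 3.58.1 (R 4.3.3, trended variance, time as a block) and rhythms with a limma F test of the series by 24 hr cosine and sine terms, with Benjamini-Hochberg adjustment over all expressed genes. Both were run on simulated data with independent normal noise, where the pass condition on calls covered only a large steady change. Outcomes for smaller changes and for rhythms are not reported here. The paper calls the 2 profiles independent, and liver removed at different times comes from different mice, but the number of mice in a sample is not given in the sources used here, so p-values measure the spread between these samples. Single times had 1 sample against 1 and no test. Summed signal per sample was between 371867 and 386529 rpbp.

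Named genes were, for single times, the 2 with the largest difference in each direction among genes past 2-fold at that time only with a value of at least 4 rpbp (1 was found downward at ZT6), the 5 past 2-fold at the most times in both directions among those that reached 4 rpbp (ties by the larger mean absolute difference), the 8 with the lowest rhythm p, and up to 6 members of a list past 2-fold. Other genes named from a list illustrate its counts. The steady rule named none. The members and lists were chosen with earlier results of these data known. Alternatives varied the offset, the expression minimum, the scaling, the variance model, the fold limit and the pairs included. Coordinates in mm9 are those of GENCODE. Promoters were matched by symbol for 5657 of 10198 expressed rows. Gene names are the older symbols of the deposited table. Some results are not reported here.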

Additional observations from a re-analysis of the deposited data

Results flagged for a closer look

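Of 67 groups of 6 values examined, 6 had a highest or lowest value far from the other 5, a number to be read against the 1 in 20 that chance gives. The median difference of the acute-phase list was 1.02 at ZT22, far above the other times. The median difference of CAR and PXR xenobiotic targets was -0.31 at ZT22, far below the other times. The summed hepatocyte markers of series 1 were lowest at ZT2, at 25034 rpbp, and those of series 2 had a lowest value of 25885 rpbp. The summed blood cell markers of series 2 were highest at ZT10, at 296 rpbp. The summed antigen presentation markers of series 1 were highest at ZT14, at 96.2 rpbp. The summed B and plasma cell markers of series 1 were highest at ZT6, at 3.44 rpbp, a level at which no single marker of that list was expressed.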

How the results depend on the processing

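The steady comparison and the rhythm comparison called 0 genes under each offset, expression minimum, scaling and variance model tried, and between 0 and 0 genes when each time pair was left out in turn. Without a pair, the genes at an unadjusted p below 0.05 numbered 358 to 607 for the steady limma fit and 104 to 331 for the rhythm fit, and the lowest adjusted p was 0.416 (without ZT6) and 0.142 (without ZT2). Without the time block limma called 0, with 133 at an unadjusted p below 0.05.

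The number of genes past 2-fold depended on the limits. For any time it was 580, and became 373 with a mean above 2 rpbp, 903 with no minimum, 1868 at 1.5-fold and 207 at 3-fold. For 2 or more times (217) it became 341 with an offset of 0.1, 142 with an offset of 1, 348 with no offset, 132 with a mean above 2 rpbp, 777 at 1.5-fold and 72 at 3-fold. At 1.5-fold the numbers from ZT2 to ZT22 were 367, 354, 678, 566, 576 and 664, and at 3-fold 32, 28, 75, 46, 59 and 67. With a mean above 2 rpbp they were 40, 55, 147, 107 and 92 from ZT2 to ZT18. At ZT2 (82) the number was 152 with an offset of 0.1, 49 with an offset of 1, 143 with no offset and 134 with no minimum. At ZT6 (90) it was 154 with an offset of 0.1 and 170 with no offset. At ZT14 (162) it was 107 with an offset of 1 and 265 with no minimum. Scaling moved the share of higher calls by over 10 percentage points at ZT14 alone, from 30.9% to 44.9% with quantile scaling. Chosen after seeing the data, leaving out rows under a synonym of another row gave 566 genes, and leaving out rows that switched between near 0 and high gave 572. Of 650 values of 116 named genes and 14 list medians under other scalings and offsets, 644 moved by less than the spread over the pairs and none changed sign (core clock medians, near 0, were not among them). The other 6, all with an offset of 0.1, belonged to Cfd, Fgf21, Gja10, Maff, S100a8 and Tff2.

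With 1 sample per time and series, a difference between mice, dissections and libraries cannot be told apart at a single time.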
